A study of Mus musculus with 22 samples.

Results

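Transcription factors that set up and maintain the endocrine lineage of the pancreas were described in whole pancreas of mouse mothers and newborn pups. The members, Neurog3, Neurod1, Nkx2-2, Nkx6-1, Pax4, Pax6, Isl1, Insm1 and Rfx6, are 9 of the 21450 genes and 13 of the 30146 probes on the panel. They are known regulators of the lineage and were selected on their levels, in counts per 1000000 counts of a library (CPM), in these same libraries, and they are described in 2 classes of library. A library was placed in the newborn type when its summed Afp count exceeded its summed Pnlip count, and otherwise in the adult type. Afp encodes alpha-fetoprotein, a product of fetal and newborn tissue, and Pnlip encodes pancreatic lipase, a digestive enzyme of the mature acinar cell. The rule gave 14 newborn-type and 8 adult-type libraries of 22, and the split was wide on both genes. Afp ranged over 468 to 1487 CPM and Pnlip over 22.3 to 91.6 CPM in the newborn type, against 0 to 1.25 CPM and 40765 to 48925 CPM in the adult type. Because the difference between the classes entered the choice of the members, it is given as a description and was not tested.

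Islets of Langerhans arise from epithelial progenitors of the fetal pancreas that briefly switch on Neurog3, a basic helix-loop-helix factor, when Notch signalling is low. Neurog3 turns on a second tier of factors, among them Neurod1, Insm1, Pax4, Nkx2-2 and Rfx6, and is then shut off. The later factors sort the cells into alpha, beta, delta, PP and epsilon fates and keep the hormone genes active in mature islet cells. Several of them also act in enteroendocrine cells of the gut and in neurons.

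The animals were C57Bl/6 mice in all groups. Dams received corn oil or TCDD in corn oil, a dioxin that binds the aryl hydrocarbon receptor, at 20 ng/kg per day by subcutaneous injection 2 times a week, from before mating until they gave birth. Pups were exposed through the dam only, and pancreas was collected on the day of birth from the dam and from 1 male and 1 female pup of a litter. The labels give 4 control dams, 3 control female pups, 3 control male pups, 4 TCDD dams, 4 TCDD female pups and 4 TCDD male pups, and the labels state no age for the dams. RNA was measured by TempO-Seq, in which a pair of detector oligos is ligated on its target RNA and the ligated pairs are sequenced. The efficiency of detector oligos differs between probes, so levels were compared between libraries for 1 gene and never between genes.

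Stage genes went against the stage label in 8 of 22 libraries. Control dams 2 and 4 and TCDD dams 6 and 10 were of the newborn type, whereas TCDD male pups 8, 10 and 11 and TCDD female pup 6 were of the adult type. Y-linked genes went against the sex label in 10 libraries, and 9 libraries matched on both counts. Which other labels of the 13 remaining libraries hold was not tested, so each comparison by chemical below is a comparison of labels. The newborn type held 8 libraries labelled control and 6 labelled TCDD, and the adult type held 2 and 6. Totals ran from 11223816 to 34911410 counts in the newborn type and from 14068304 to 19148777 in the adult type, so that 3 counts, taken as the floor of detection, were worth 0.0859 to 0.267 CPM. Of 4 acinar markers that the rule did not use, Cpa1, Cela1 and Prss2 were higher in the adult type and Ctrb1 in the newborn type, without overlap. Cpa1 measured 16807 to 24825 CPM in the newborn type and 34094 to 41025 CPM in the adult type, and Ctrb1 16887 to 27249.7 CPM and 9036 to 13181 CPM. Both classes also held islet hormone transcripts. In such bulk samples, fewer cells of a type and less RNA per cell cannot be told apart.

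Promoter sequence is shown for 3 members that stand for the steps of the cascade: Neurog3, which starts it, Neurod1, a direct Neurog3 target and itself a helix-loop-helix factor, and Nkx2-2, whose probes did not move together. Each stretch covers the 250 bases before an annotated start in the RefSeq annotation of GRCm38.p6, read 5′ to 3′ on the strand of the gene. Capitals mark the E-box CANNTG, the motif of helix-loop-helix factors, which reads the same on both strands. Neurog3 lies on chromosome 10 and its window is chr10:62132840-62133089 on the plus strand. The Neurod1 window is chr2:79456637-79456886 and the Nkx2-2 window is chr2:147186403-147186652, both on the minus strand. The Nkx2-2 window lies inside the annotated span of the gene, chr2:147176485-147195434, so it is not the sequence upstream of the whole gene. The Neurog3 and Neurod1 windows adjoin the ends of their genes.
Neurog3: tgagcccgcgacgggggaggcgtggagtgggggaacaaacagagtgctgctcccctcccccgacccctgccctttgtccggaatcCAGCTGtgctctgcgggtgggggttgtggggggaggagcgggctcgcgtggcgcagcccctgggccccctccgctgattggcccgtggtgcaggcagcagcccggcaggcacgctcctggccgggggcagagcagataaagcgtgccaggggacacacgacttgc
Neurod1: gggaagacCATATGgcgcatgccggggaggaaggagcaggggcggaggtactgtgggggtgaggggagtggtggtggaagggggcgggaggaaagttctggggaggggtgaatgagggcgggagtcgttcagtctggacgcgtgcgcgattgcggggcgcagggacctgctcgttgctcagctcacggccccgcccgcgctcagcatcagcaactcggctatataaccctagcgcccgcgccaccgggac
Nkx2-2: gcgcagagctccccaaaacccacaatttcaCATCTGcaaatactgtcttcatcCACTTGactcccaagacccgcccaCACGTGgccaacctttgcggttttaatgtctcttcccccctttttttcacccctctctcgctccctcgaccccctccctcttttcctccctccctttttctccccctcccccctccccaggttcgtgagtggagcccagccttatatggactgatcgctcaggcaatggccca
Neurog3 and Neurod1 each held 1 E-box in this window and Nkx2-2 held 3. The first of the Nkx2-2 boxes reads CATCTG, which is CAGATG on the other strand, a form found on either strand in 14.4% of all promoters in the table. The table held promoters of 7 of the 9 members, with 8 annotated starts, and 5 of these 8 windows held at least 1 E-box, against 66.2% of all 32851 promoters. A match of 6 letters describes the sequence and is not evidence of a bound site.

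Neurog3, the factor that commits progenitors to the endocrine fate, was close to the limit of detection. In the newborn type it ranged from 0 CPM in control female pup 4 through a median of 0.313 CPM to 0.874 CPM in control dam 2, which the stage genes place in the newborn type. Of the 14 newborn-type libraries, 10 held more than 3 counts and the highest count was 15, in control dam 4. Of the 8 adult-type libraries, 7 held no count and TCDD male pup 8 held 1, which is 0.0581 CPM. Pooled over libraries, the newborn type held 80 counts and the adult type 1, a ratio of 45.4 after scaling to total counts, with a 95% interval of 7.92 to 1816 that covers counting error only. Counts spread more between newborn-type libraries than counting error alone gives, with a chi-square per degree of freedom of 2.18.

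Neurod1, the helix-loop-helix factor that follows Neurog3 and stays on in islet cells, was well above the floor in all newborn-type libraries. It lay at 17.6 CPM in the lowest newborn-type library, 24.4 CPM at the median and 34.9 CPM in the highest, and at 0.456, 1.26 and 2.19 CPM in the adult type. The lowest newborn-type library stood above the highest adult-type library, and the medians differed by 19.4-fold. Insm1, a zinc-finger factor needed for endocrine differentiation, ranged from 0.445 through 0.692 to 1.84 CPM in the newborn type. In the adult type 4 of 8 libraries had no Insm1 count, and the highest reached 0.261 CPM in TCDD male pup 11. The pooled Insm1 ratio was 9.08 (95% interval 5.08 to 17.9, counting error only), from 192 counts against 12.

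Rfx6, a winged-helix factor that acts both before and after Neurog3, ranged from 4.01 CPM in control dam 4 through 6.51 to 10.9 CPM in control dam 2. In the adult type it lay between 0.0590 and 0.640 CPM with a median of 0.285 CPM, and the medians differed by 22.9-fold. Pax6, a paired-domain factor of all hormone-producing islet cells, measured 8.81, 13.2 and 23.2 CPM at the lowest, median and highest newborn-type library. The adult-type values were 0.0581, 0.562 and 0.960 CPM, so that the classes did not overlap and the medians differed by 23.4-fold. Isl1, a LIM-homeodomain factor of postmitotic endocrine cells, measured 5.76, 8.52 and 12.5 CPM against 0.119, 0.275 and 0.734 CPM. Its ratio of medians, 30.9, was the highest among the 7 members with a count in the median adult-type library.

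Nkx6-1, a homeodomain factor restricted to beta cells after birth, ranged from 0.983 CPM in control female pup 4 through 1.89 to 3.57 CPM in TCDD dam 10, a library of the newborn type. In the adult type it lay between 0 and 0.384 CPM with a median of 0.222 CPM, a ratio of medians of 8.52. Nkx2-2, a homeodomain factor of beta, alpha and PP cells, measured 9.71, 13.3 and 18.9 CPM against 1.51, 2.21 and 3.80 CPM, and its ratio of 6.00 was the lowest of these members. Pax4, which favours beta and delta over alpha fates in the fetus, was near 0 throughout. It had 14 counts over the newborn type, 9 of them in TCDD dam 10, and 5 over the adult type, 4 of them in TCDD dam 11. No Pax4 count was found in 9 newborn-type and 6 adult-type libraries, and the pooled ratio of 1.59 had an interval of 0.541 to 5.64. That interval covers counting error only, and the counts spread more than that between newborn-type libraries (chi-square per degree of freedom 5.61).

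**Figure D1:**
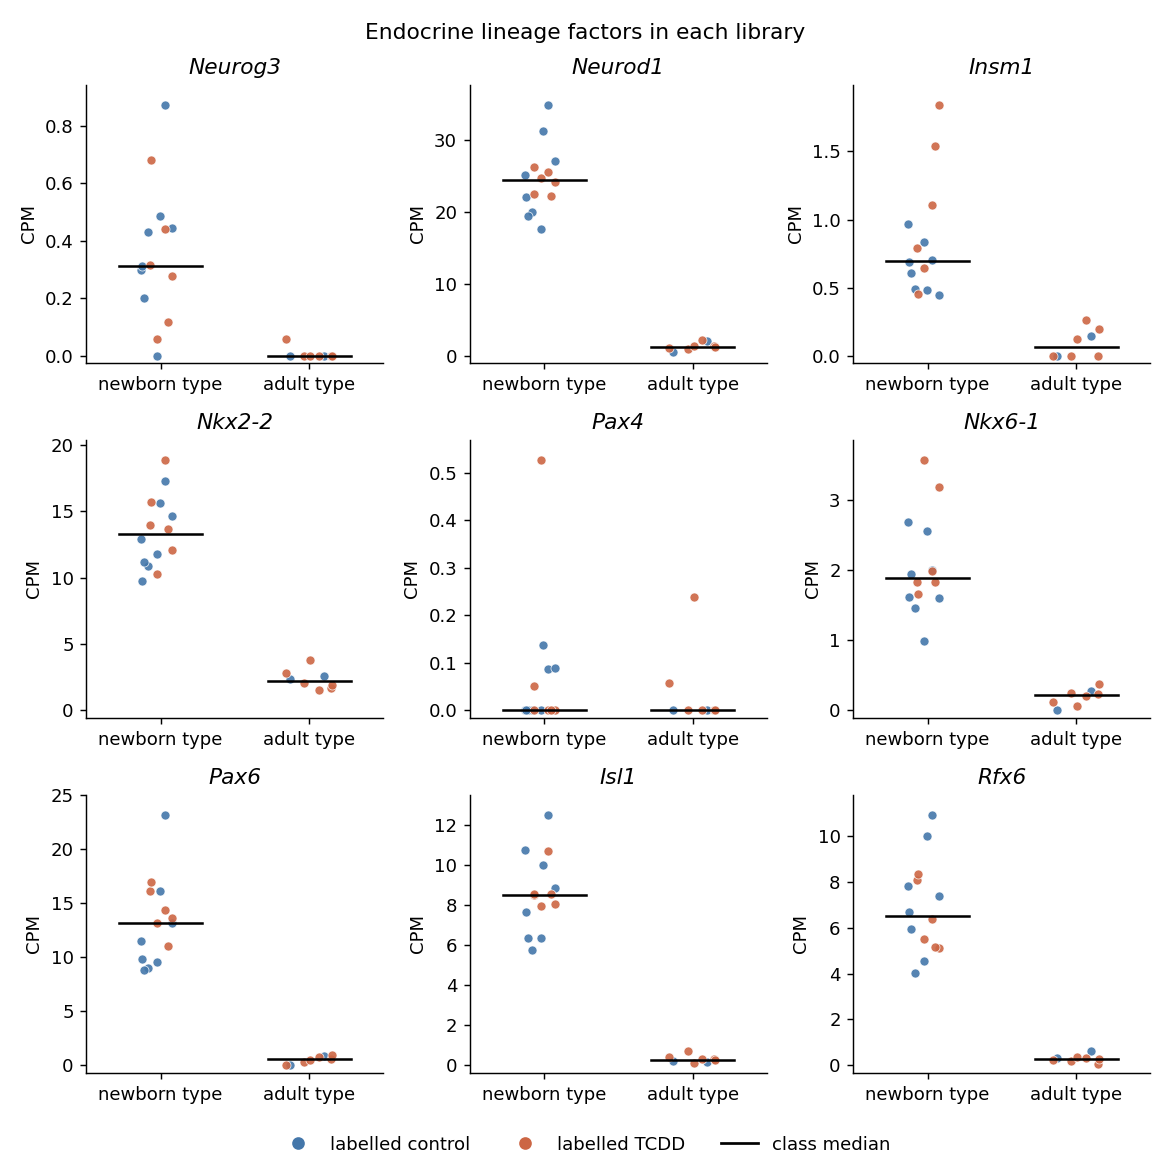
Level of each of the 9 members in every library, in CPM on a linear axis of its own per gene. Points are libraries, coloured by chemical label and set apart by library class, and bars are class medians. The classes do not overlap for 7 members, while Neurog3 and Pax4 have libraries at 0 CPM in both.

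Of 9 members, 7 did not overlap between the classes, all with the newborn type higher. On the same measure 40.8% of all 21053 genes with a count lay higher in the newborn type without overlap, and 0.28% lay higher in the adult type. This count entered the choice of the members and nothing is read from it. The ratios depend on the scale. Over 10940 genes, the median ratio of the newborn to the adult type was 3.94 in CPM and 1.10 after TMM scaling, a correction that sets most genes equal between libraries. After TMM scaling, 4 of 9 members still did not overlap, against 8.31% of all genes, namely Neurod1, Pax6, Isl1 and Rfx6. Their ratios of medians were then 5.75 for Neurod1, 7.00 for Pax6, 9.82 for Isl1 and 6.26 for Rfx6. Those of the other 3 were 3.35 for Insm1, 2.51 for Nkx6-1 and 1.73 for Nkx2-2. The newborn-type median was higher by both scalings for all 7. TMM scaling uses the same counts on which the members were chosen, so nothing is read from these values either.

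To set the factors against the amount of islet RNA, each was divided by the summed counts of 5 hormone genes, Ins1, Ins2, Gcg, Sst and Ppy, of the same library. Those hormones summed to 1006 to 2072 CPM in the newborn type (median 1730) and 89.9 to 330 CPM in the adult type (median 145), a ratio of 11.9. Per 1000 hormone counts, the median gene was 2.91-fold higher in the adult type. Among the members with a count in the median adult-type library, 4 had a higher median in the newborn type by at least 2-fold. Neurod1 measured 14.9 per 1000 hormone counts in the newborn type and 7.44 in the adult type, a ratio of 2.00. Pax6 measured 7.46 against 2.76 (2.70-fold), Isl1 4.86 against 1.76 (2.75-fold) and Rfx6 3.96 against 1.75 (2.27-fold). For Neurod1, Pax6 and Rfx6, 7 of 8 adult-type libraries lay below every newborn-type library, and for Isl1 6 did. No member was without overlap on this scale, where 0.997% of genes lay higher in the newborn type and 16.9% higher in the adult type without overlap.

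Nkx6-1 had nearly equal medians per 1000 hormone counts, 1.164 in the newborn type and 1.141 in the adult type. Insm1 had 0.392 against 0.216. Neurog3 had a median of 0.170 against 0, but the single adult-type count, in TCDD male pup 8, came to 0.646 and lay above all newborn-type libraries, of which the highest was at 0.477. Nkx2-2 went the other way, with 7.82 in the newborn type and 16.2 in the adult type. It was 2.08-fold higher in the adult type, beside 2.91-fold for the median gene. For Nkx2-2, 5 of 8 adult-type libraries lay above all newborn-type libraries. Dividing by 3 granin genes (Chga, Chgb and Scg2, secretory-granule proteins of endocrine cells) in place of the hormones kept each of these directions but that of Nkx6-1. The newborn-to-adult ratio was then 1.44 for Neurod1, 2.23 for Pax6, 2.04 for Isl1, 1.66 for Rfx6, 1.37 for Insm1 and 0.97 for Nkx6-1. Nkx2-2 was 2.33-fold higher in the adult type on that scale. No member was without overlap there either, where 0.746% of genes lay higher in the newborn type and 26.1% higher in the adult type without overlap.

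**Figure D2:**
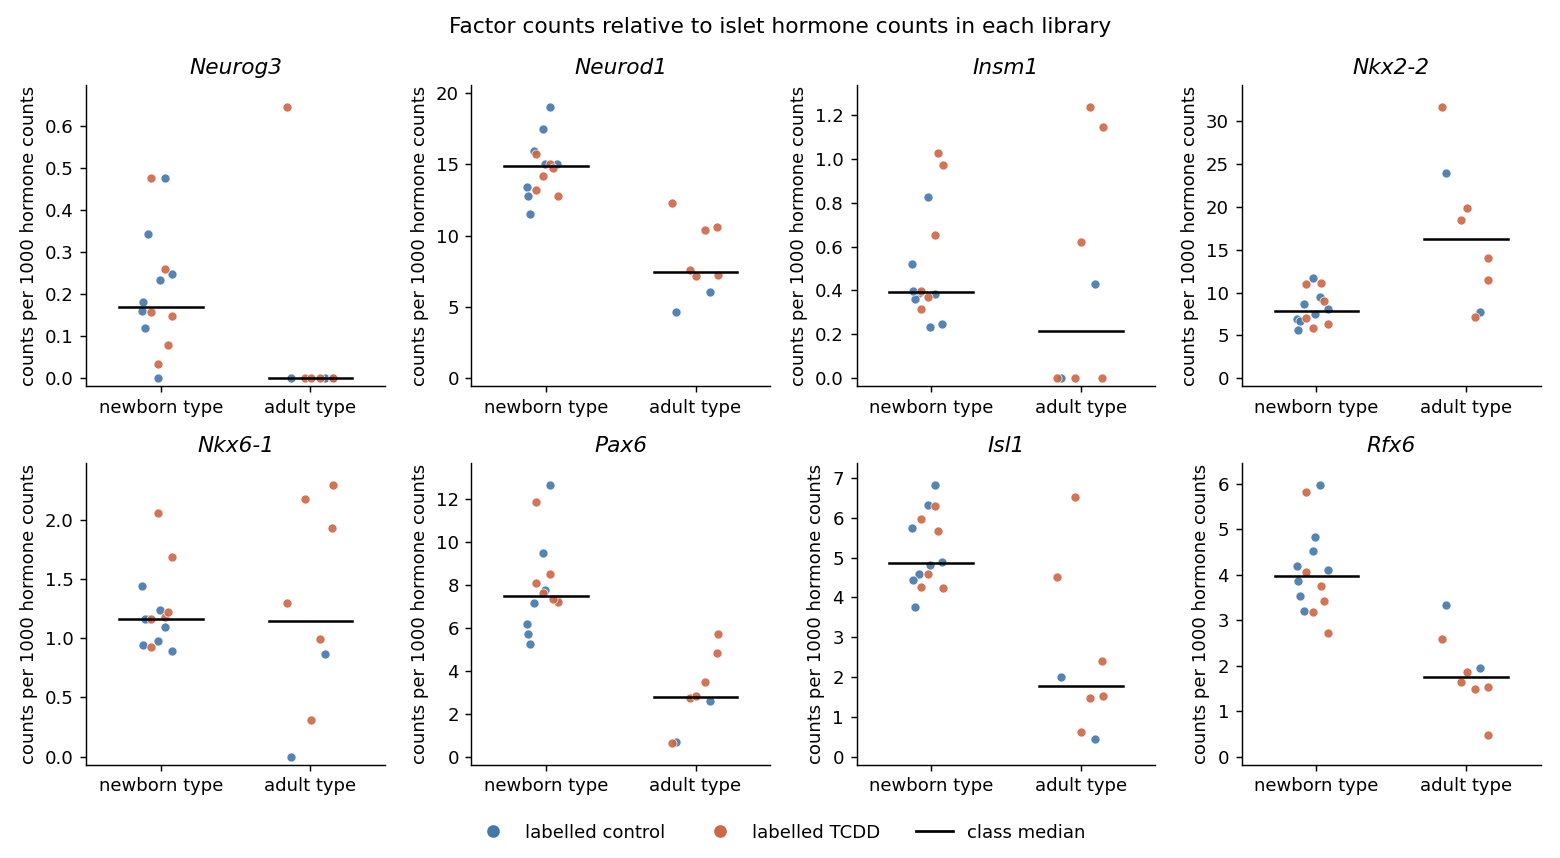
Counts of 8 members (Pax4 left out) per 1000 counts of the 5 summed hormone genes, on linear axes. Points are libraries by class and chemical label, and bars are class medians. Neurod1, Pax6, Isl1 and Rfx6 have higher medians in the newborn type, Nkx6-1 has medians of 1.164 and 1.141, and Nkx2-2 is higher in the adult type. The median gene is 2.91-fold higher in the adult type on this scale.

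The direction for Nkx2-2 rested on 1 of its 3 probes. Probe Nkx2-2_30984 held 45.4% of the gene's counts in the newborn type and 69.1% in the adult type. Its CPM median was 4.74-fold higher in the newborn type, whereas that of Nkx2-2_57146 was 9.63-fold higher and that of Nkx2-2_31886, with 0 to 6 counts in an adult-type library, 32.2-fold. Per 1000 hormone counts, Nkx2-2_30984 went from 3.67 in the newborn type to 11.98 in the adult type, whereas Nkx2-2_57146 had 3.99 and 4.08 and Nkx2-2_31886 had 0.516 and 0.124. The median gene was 2.91-fold higher in the adult type on this scale. With Nkx2-2_30984 left out, a step chosen after its values were seen, the gene measured 4.403 per 1000 hormone counts in the newborn type and 4.11 in the adult type, a ratio of 1.07. The transcript part that each probe reads was not analysed here. The cause of the split was not tested. The other members with a pair of probes, Neurod1 and Pax6, each had 1 abundant probe that followed the gene, with ratios of 19.3 for Neurod1_70904 and 22.0 for Pax6_75994, and 1 weak probe with an adult-type median of 0.

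**Figure D3:**
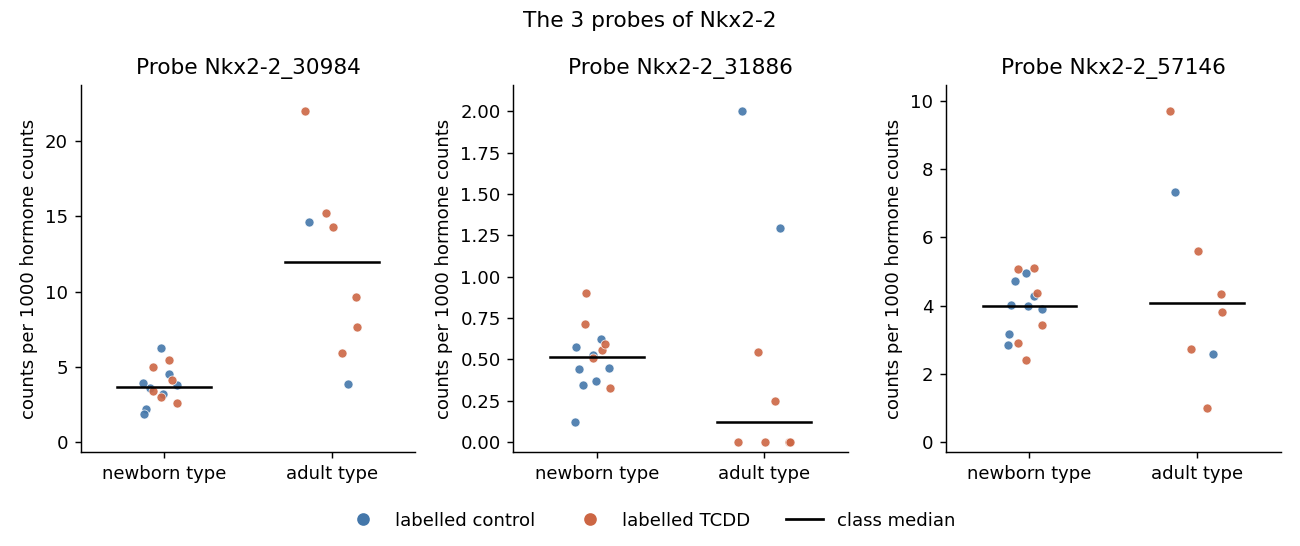
The 3 Nkx2-2 probes in counts per 1000 hormone counts, on linear axes. Points are libraries by class and chemical label, and bars are class medians. Nkx2-2_30984 is higher in the adult type (median 11.98 against 3.67), while Nkx2-2_57146 has medians of 4.08 in the adult and 3.99 in the newborn type. The median gene is 2.91-fold higher in the adult type on this scale.

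Within the newborn type, libraries with more hormone RNA had more of several members. Over 18 relations (9 members in 2 classes, log2(CPM + 1), two-sided permutation tests, Benjamini-Hochberg adjusted), 5 passed at 0.05 by Pearson's r. Neurod1 had r = 0.75 (permutation p = 0.0007, adjusted 0.0126) and rho = 0.77 (adjusted permutation p = 0.0364) over 14 newborn-type libraries. Nkx6-1 had r = 0.69 (adjusted permutation p = 0.0344) and rho = 0.62 (0.0784), and Rfx6 had r = 0.64 (0.0413) and rho = 0.56 (0.1003). In the 8 adult-type libraries Neurod1 had r = 0.81 (exact permutation test, adjusted p = 0.0430) and rho = 0.88 (0.0652), and Pax6 had r = 0.82 (0.0413) and rho = 0.81 (0.0784). The member and the hormones of a library share its total as the CPM denominator. The share of all genes that would pass the same test was not computed. The 5 relations are therefore not read as particular to the members.

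Without the 2 libraries farthest from the median hormone level in each class, none of the 18 passed, with fewer libraries left to test. In the newborn type these were control female pup 4, with 1006 CPM of hormones, and control dam 4, with 1255 CPM, and r then fell to 0.59 for Neurod1, 0.39 for Nkx6-1 and 0.37 for Rfx6 (n = 12, permutation test). In the adult type they were control dam 7 (330 CPM) and TCDD male pup 8 (89.9 CPM), and r was then 0.88 for Neurod1 (adjusted p = 0.142) and 0.77 for Pax6 (n = 6, exact permutation test). The calls were lost there although r was not lower for Neurod1. With the granin genes in place of the hormones, newborn-type Nkx6-1 (permutation test, adjusted p = 0.184) and adult-type Pax6 (0.0878) did not pass and newborn-type Pax6 did (r = 0.71, 0.0140). Isl1, by contrast with Neurod1, had r = -0.52 over the 8 adult-type libraries, which did not pass and rests on 2 to 12 counts in a library.

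**Figure D4:**
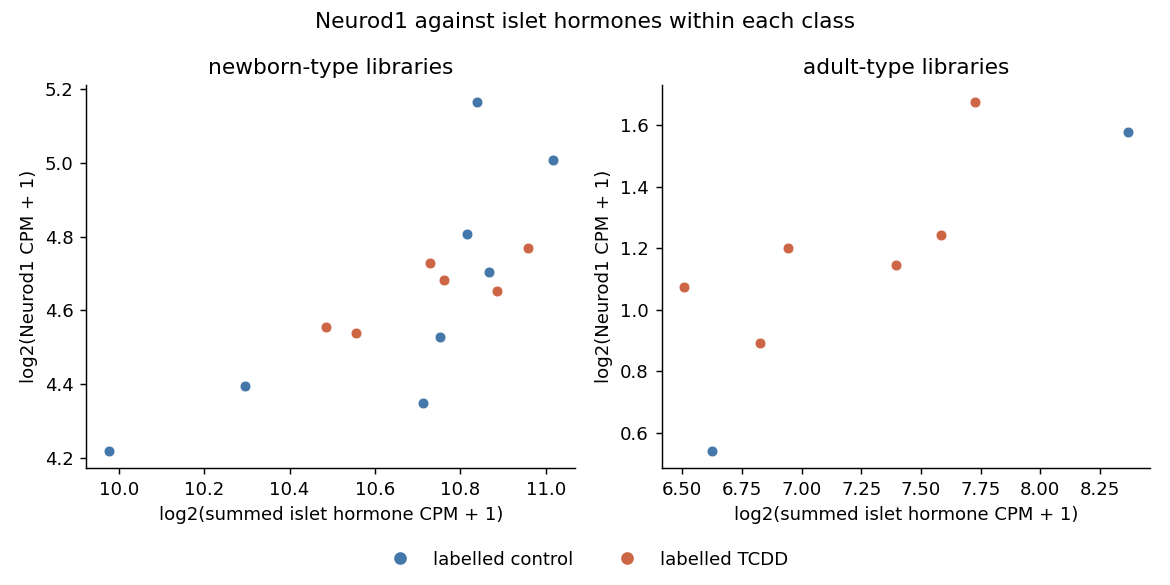
Neurod1 against the summed hormone genes, both as log2(CPM + 1), with one panel per class and axes that differ between panels. Points are libraries coloured by chemical label. The newborn-type libraries span 1006 to 2072 CPM of hormones, with control female pup 4 the lowest on both axes, and the adult-type libraries span 89.9 to 330 CPM.

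Individual newborn-type libraries stood out in more than 1 member. Control dam 2 was the highest of the 14 in CPM for Neurog3, Neurod1, Pax6, Isl1 and Rfx6. After TMM scaling it was still the highest for Neurog3, Pax6 and Isl1, and control female pup 7 was the highest for Neurod1 and Rfx6. Control female pup 4 was the lowest for Neurog3, Neurod1 and Nkx6-1, and control dam 4 was the lowest for Isl1 and Rfx6, all in CPM. The fold between the highest and lowest newborn-type library was smallest for Nkx2-2 (1.94) and Neurod1 (1.98), 2.170 for Isl1, 2.63 for Pax6, 2.72 for Rfx6, 3.63 for Nkx6-1 and 4.13 for Insm1. Every member with counts in all newborn-type libraries spread beyond counting error, with a chi-square per degree of freedom from 3.69 for Insm1 to 17.9 for Pax6.

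Markers of gut epithelium, and of enteroendocrine cells and neurons, which use these factors, also differed between libraries. The 10 markers of gut epithelium and enteroendocrine cells were summed together, so the sum is not a level of enteroendocrine cells. It ranged over 46.0 to 423 CPM in the newborn type and 0.783 to 2.77 CPM in the adult type. The highest sum was in control male pup 4, where Fabp2 alone reached 360 CPM, and Cck, Cdx1 and Cdx2 had a newborn-type median of 0. Control male pup 4 had the lowest Pax6 (8.81 CPM) and the lowest Neurod1, Pax6 and Isl1 per 1000 hormone counts of the newborn type, at 11.5, 5.25 and 3.77. The 10 markers of neurons and ganglia summed to 36.8 to 129 CPM in the newborn type, highest in control dam 4, and to 1.17 to 3.91 CPM in the adult type, with Chat at a newborn-type median of 0. In CPM, control dam 4 had the lowest Isl1 and Rfx6, and also the lowest sums of duct, endothelial and blood markers and of the progenitor and Notch lists. After TMM scaling the lowest Isl1 was in control male pup 4 and the lowest Rfx6 in control female pup 4. The part of gut and neuronal RNA in the members' levels was not tested.

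Other genes of the lineage were read from lists. Of 22 further endocrine transcription factors, 11 were higher in the newborn type without overlap and 11 overlapped, 2 of the latter without a count in any library. Of all genes with a count, 40.8% were higher in the newborn type without overlap. On the log2(CPM + 1) scale the widest gaps in median were those of Sox4, a progenitor factor needed for endocrine formation (52.2 against 2.32 CPM), Etv1 (14.5 against 0.711 CPM), Prox1 (10.9 against 0.548 CPM) and Myt1, a zinc-finger partner of Neurog3 (8.37 against 0.370 CPM). Pdx1, the pancreas and beta-cell factor, had no count in any library and is named here after its values were seen. The factor is known in islets, so no level is read from its probe. Of 10 progenitor factors 6 were higher in the newborn type without overlap. The ratio of medians was 4.41 for Gata6 (43.4 against 9.84 CPM), 6.47 for Onecut1, an activator of Neurog3 (6.01 against 0.929 CPM), and 3.03 for Nr5a2 (40.8 against 13.5 CPM), beside 3.94 for the median gene.

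Of 6 Notch ligands and regulators, the pathway that restrains Neurog3, 5 were higher in the newborn type without overlap, beside 40.8% of all genes. Medians were 13.1 against 2.97 CPM for the ligand Jag1, a ratio of 4.41 beside 3.94 for the median gene, 2.88 against 0.152 CPM for the ligand Dll1, itself a Neurog3 target, 2.82 against 0.290 CPM for Dll4 and 3.27 against 0.556 CPM for Rbpj, the DNA-binding partner of Notch. Of 24 genes known to act downstream in islets, 18 were higher in the newborn type without overlap and 6 overlapped. Ghrl, the hormone of epsilon cells, measured 56.1 against 0.156 CPM, Ppy 119 against 7.06 CPM, Chga 61.0 against 3.30 CPM and Ins1 467 against 33.4 CPM. The median difference in log2(CPM + 1) was 2.15 over the members, 1.17 over the other endocrine factors, 1.35 over the progenitor factors, 1.51 over the Notch genes and 2.76 over the downstream genes, against 0.70 over all 21053 genes with a count and 1.49 over the 11197 genes with a median of at least 1 CPM in a class. The latter set was filtered on level and the lists were not. The list medians are therefore not read as higher or lower than 1.49.

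The genes most like the members over the 14 newborn-type libraries were ranked by Pearson's r of log2(CPM + 1) among 10714 genes with a median of at least 20 counts, as a description. The 5 most like Neurog3 were Cfap300 (r = 0.91), Rgs9 (0.88), Nhlrc2 (0.86), a RIKEN clone gene (0.82) and F11r (0.82). The 5 most like the mean of the other 8 members were Nudt14 (0.92), St6galnac3 (0.89), Ift57 (0.88), Kcnk16 (0.87), an islet potassium channel, and Aga (0.87). Neurog3 held at most 15 counts in a library. Among the members themselves, Rfx6 would have ranked 91 and Pax6 102 for likeness to Neurog3.

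The comparison of interest by the labels was TCDD against corn oil, and no member passed it. Over the newborn-type libraries, 8 labelled control and 6 labelled TCDD, edgeR's quasi-likelihood test with Benjamini-Hochberg adjustment called 0 of 17109 probes (0%), with 554 at an unadjusted p under 0.05. DESeq2 called 0 as well. The filter on low counts left 10 probes of 7 members, Neurog3 and Pax4 not among them, and all 10 had an adjusted p of 1.0 in edgeR. Neurod1 measured 17.6, 23.6 and 34.9 CPM in the lowest, median and highest newborn-type library labelled control and 22.2, 24.4 and 26.3 CPM in those labelled TCDD. The libraries labelled TCDD lay wholly inside the range of the control libraries, and the log2 fold change of Neurod1_70904 was -0.19 ± 0.118 (SE). Rfx6 measured 4.01, 7.03 and 10.9 CPM against 5.13, 5.94 and 8.34 CPM, with a log2 fold change of -0.29 ± 0.172.

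Pax6 measured 8.81, 10.7 and 23.2 CPM in newborn-type control libraries and 11.03, 14.0 and 17.0 CPM in those labelled TCDD, and its abundant probe Pax6_75994 had a log2 fold change of 0.03 ± 0.156. The change was -0.10 ± 0.136 for Isl1, 0.20 ± 0.254 for Nkx6-1, 0.03 ± 0.174 for Nkx2-2_30984 and -0.16 ± 0.147 for Nkx2-2_57146. Insm1 had the largest change, 0.57 ± 0.337, from 0.445, 0.645 and 0.970 CPM to 0.455, 0.947 and 1.84 CPM, with an unadjusted p of 0.104 in edgeR and overlapping groups. Neurog3, below the filter, measured 0.381 ± 0.253 CPM (SD, n = 8) in the control and 0.316 ± 0.227 CPM (SD, n = 6) in the TCDD libraries, and the exact permutation test over 3003 regroupings gave a two-sided p of 0.641. Over 1 probe per member the median log2 fold change was -0.10, and over all 10 member probes it was 0.03, against -0.00 over all probes.

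**Figure D5:**
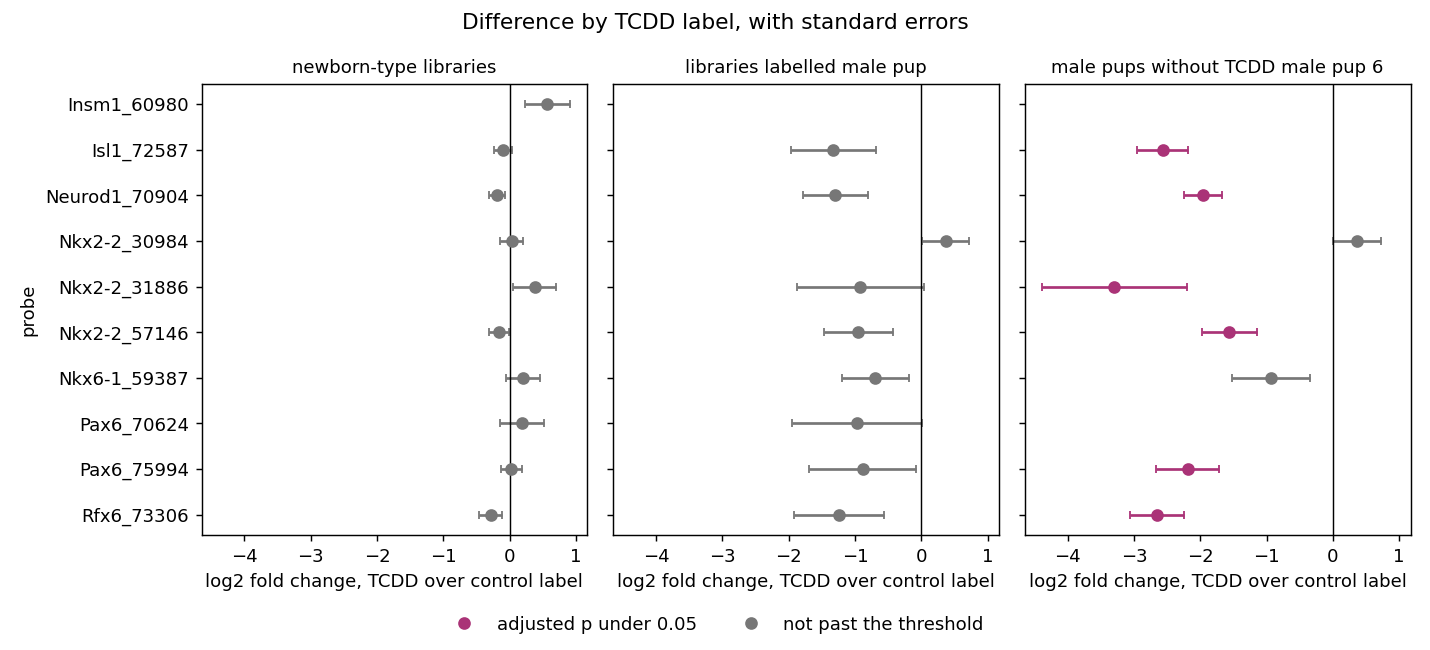
Log2 fold change of the member probes, TCDD over control label, with standard errors of the edgeR fit as bars, in newborn-type libraries, in libraries labelled male pup and in those without TCDD male pup 6. No probe passed in the first and the middle panel, and 6 probes of 5 members, all lower, passed in the last (colour marks an adjusted p under 0.05).

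Over the adult-type libraries, 2 labelled control and 6 labelled TCDD, edgeR called 0 of 13513 probes (0%), with 388 at an unadjusted p under 0.05. Only 4 probes of 3 members passed the filter there. Dams as labelled gave 0 calls of 15594 probes (0%, 150 at an unadjusted p under 0.05), with 6 members tested, and female pups gave 0 of 17513 (0%, 299 unadjusted), with 7 tested. DESeq2 called 0 in each of these 3 comparisons. The members' median log2 fold change was 0.46 in the adult type, -0.07 in dams and -0.43 in female pups, against 0.02, 0.01 and -0.00 over all probes. Both dam groups mix the library classes, and TCDD female pup 6 is of the adult type. Over all member probes the female-pup median was -0.33, and -0.05 without TCDD female pup 6. The adult-type median over all member probes was 0.39, -0.21 without control dam 5 and 0.83 without control dam 7.

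Male pups as labelled compared 3 control libraries, all of the newborn type, with 4 TCDD libraries of which 3 were of the adult type. Neurod1 measured 19.4, 22.0 and 27.0 CPM at the lowest, median and highest control male pup. In TCDD male pups it lay between 1.10 and 2.19 CPM in the 3 adult-type libraries and at 22.5 CPM in TCDD male pup 6. edgeR called 0 of 16176 probes (0%, 2703 at an unadjusted p under 0.05) and DESeq2 called 505, none of them in a member. The log2 fold change was -1.30 ± 0.489 for Neurod1_70904 (adjusted p = 0.275 in edgeR), -1.33 ± 0.640 for Isl1 and -1.24 ± 0.682 for Rfx6. Without TCDD male pup 6, which leaves 3 newborn-type against 3 adult-type libraries, edgeR called 6451 of 15379 probes (41.9%), 3586 of them lower (23.3%), and 5 of the members passed, all lower. This is the class difference for which the members were chosen, so nothing is read from their passing. They were Isl1 (-2.57 ± 0.389), Neurod1 (-1.96 ± 0.287 for Neurod1_70904), Pax6 (-2.19 ± 0.474 for Pax6_75994), Rfx6 (-2.65 ± 0.408) and Nkx2-2 (-1.56 ± 0.409 for Nkx2-2_57146), whereas Nkx2-2_30984 changed by 0.37 and did not pass. In that comparison chemical label and library class cannot be told apart.

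Neither sex nor stage as labelled gave a call in a member. Male against female pups gave 0 of 17924 probes (0%, 665 at an unadjusted p under 0.05 in edgeR), with a median log2 fold change of -0.50 over the 7 members tested and -0.06 over all probes, and DESeq2 called 0. Pups against dams gave 0 of 18539 probes (0%, 516 unadjusted), with medians of 0.21 and -0.01, and DESeq2 called 17, none in a member. These are contrasts of labels that the stage and Y-linked genes contradict in 13 libraries. Libraries labelled male pup held more of the adult type than those labelled female pup. In the sex contrast the median over all member probes was -0.37, and -0.03 in the stage-matching libraries alone, a set chosen after seeing the data. Of the 22 further endocrine factors, 6 to 16 were tested in a comparison after the filter on low counts, and of the 10 progenitor factors 7 to 9. For the 6 Notch genes it was 2 to 5 and for the 24 downstream genes 17 to 20, each fewest in the adult type. None of the genes tested passed in any of the 7 comparisons.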

How the data were processed

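Whole pancreas RNA was measured with the mouse whole transcriptome version of TempO-Seq, per the labels' protocols. The authors deposited raw counts per probe for 22 libraries. Per the submitters' processing notes, bcl2fastq 2.17.1.14 had converted the reads. The software that aligned them, and the genome build, were not given in the sources used here. Counts were summed over the probes of a gene and divided by the library total (CPM) for levels. No molecular identifiers are described, so intervals and floors cover counting error only.

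Samples were grouped by the labels. The members and lists were chosen with earlier results of these data known. Tests ran per probe with edgeR 4.0.16 under R 4.3.3 (filterByExpr, TMM, glmQLFit and glmQLFTest, Benjamini-Hochberg over all probes, threshold 0.05). Standard errors were derived from the fold change and its F statistic. limma 3.58.1 (voom) and DESeq2 1.42.0 were alternatives, and the fits were tested on simulated data. Permutation tests used SciPy 1.17.1, and that of Neurog3 was added after the data were seen. Named were all members, per list up to 4 genes with the largest class difference and any that passed a test, and the 5 genes most like Neurog3 or the other members. Promoters came from RefSeq. Some genes of the lists are not reported here by name.

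Replicate numbers name litters, per the labels. Over 10240 probes, the male and female pup of a number deviated from their group means with correlations of -0.84 to 0.08 in 7 pairs. The control pairs, numbered 2, 4 and 7, gave -0.05, 0.02 and 0.08. Both TCDD pup groups mix the library classes, which enter the deviations, so nothing on litters is read from the values of the TCDD pairs. Same-group libraries differed beyond counting error in all 30 pairs (chi-square over degrees of freedom at least 7.47). The labels do not say whether animals shared a cage or batch. P-values measure the spread between libraries, and outside the replicate block libraries of the same litter number counted as independent. Where a comparison mixed the library classes, that spread includes the class difference.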

Additional observations from a re-analysis of the deposited data

Results flagged for a closer look

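Each member was looked at in 8 groups of 4 to 8 libraries (72 groups in all) for a single library far from the others. The limit used flags about 1 in 20 groups of normally spread values by chance, and 20 were found. Counts near 0 and groups that mix the library classes are not spread that way, so no excess over chance is read from the 20. Most fall in 2 label groups that mix library classes. Among TCDD male pups, TCDD male pup 6 is the only newborn-type library and stood far above the other 3, with Neurog3 at 0.682 CPM, Neurod1 at 22.5 CPM, Nkx2-2 at 15.7 CPM, Pax6 at 17.0 CPM, Isl1 at 8.56 CPM and Rfx6 at 8.34 CPM. Among TCDD female pups, TCDD female pup 6 is the only adult-type library and stood far below, with Neurod1 at 1.30 CPM, Nkx2-2 at 1.71 CPM and Isl1 at 0.295 CPM.

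TCDD dam 6 was far above the other newborn-type libraries labelled TCDD for Isl1, at 10.7 CPM against 8.56 CPM in the next, and above the other TCDD dams for Neurog3, at 0.443 CPM. TCDD dam 8 was the highest adult-type library for Isl1, at 0.734 CPM (12 counts). The remaining values rest on few counts. The single Neurog3 count of the adult type, 0.0581 CPM in TCDD male pup 8, stands out both among all 8 adult-type libraries and among the 6 labelled TCDD. Pax4 reached 0.527 CPM in TCDD dam 10 (9 counts) and 0.238 CPM in TCDD dam 11 (4 counts), the latter both among all adult-type libraries and among those labelled TCDD. Single Pax4 counts stood alone in control dam 2 (0.0874 CPM), TCDD female pup 8 (0.0525 CPM) and TCDD male pup 8 (0.0581 CPM). Differences between these libraries were not tested.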

How the results depend on the processing

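The number of members called in the 7 label comparisons stayed at 0 under DESeq2, voom, no filter on low counts and each left-out replicate, with 1 exception. It also stayed at 0 with the stage-matching libraries alone, run for dams, female pups, male pups and sex (chosen after seeing the data), and under the replicate block. For male pups it ranged from 0 to 5 when replicates were left out in turn, and 5 was reached without TCDD male pup 6. The replicate block left the number of called probes at 0 in the 4 comparisons where litters could be blocked (pairing as a random effect within a class, as a fixed block for sex and stage).

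Members without overlap between the classes numbered 7 in CPM, 4 after TMM scaling, and 0 per hormone count, per granin count and per hormone count without Nkx2-2_30984. Of the 5 correlations with summed hormones that passed, 2 passed after TMM scaling and 0 without the 2 farthest libraries. With granins on the x axis 4 passed, 1 of them not among the 5. Over all probes the calls were 505 by DESeq2 for male pups, 17 by DESeq2 for pups against dams and 112 with no filter for the adult type, against 0 in each. Leaving out replicates gave 0 to 6451 for male pups, 0 to 990 for sex (990 without TCDD male pup 6), 0 to 2 for the adult type and 0 to 1 for pups against dams, and stage-matching libraries gave 3 for male pups. The cause was not tested. Depth limits Neurog3 and Pax4, which had no count in 8 and 15 of the 22 libraries and at most 15 and 9 counts in any.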
